A study of Mus musculus with 9 samples.

Results

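Lysosomal genes were followed in cells of BC3H1, a line from a mouse brain tumour with muscle-like properties, in a rapamycin-sensitive and a rapamycin-resistant form. The set was a list of 50 genes for acid hydrolases, lysosomal membrane proteins and subunits of the vacuolar proton pump (V-ATPase), found by gene symbol. Of the 50, 49 had a probe set that carried this symbol alone, and 47 were bright enough to be tested. In all, 18193 genes had such a probe set and 12715 were tested. Cd63, a tetraspanin of the lysosomal membrane, had none and was not analysed here. The dim cathepsin genes Ctsk and Ctss are described but were not tested.

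The lysosome is the acidic compartment in which hydrolases break down proteins, glycans, lipids and nucleic acids that arrive by endocytosis and autophagy. The V-ATPase pumps the protons that keep its lumen acidic, and it also takes part in holding mTOR complex 1, the growth kinase that rapamycin inhibits, at the lysosomal surface. Many lysosomal genes share an E-box promoter motif that is bound by TFEB and its relatives, transcription factors that mTOR complex 1 keeps out of the nucleus.

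Total RNA had been hybridised to 9 Affymetrix arrays, with 3 in each group. The resistant line had been grown out of BC3H1 over 6 months in 1 uM rapamycin and stayed in that dose throughout. Treated sensitive cells had 100 nM rapamycin for 24 h. DMSO cells were sensitive cells that had the solvent alone over the same 24 h, and the sensitive cells were kept in medium with 20% fetal bovine serum. There was 1 resistant line, and a resistant group without the drug was not analysed here. Resistance, length of exposure, drug dose and other traits of that line therefore cannot be told apart. Nothing in the labels ties the arrays to separate cultures, so that p-values rest on the spread among arrays, which can be technical. In bulk RNA, fewer cells of a kind and less RNA per cell cannot be told apart.

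The authors' signals had the same trimmed mean on every array, yet DMSO array 3 had a median of 66.0 where the other 8 arrays had 33.3 to 44.2. The main results were therefore also computed without it. Cells of the resistant line had less of the muscle-like markers. Acta2, a smooth muscle actin, had signals of 7410.2, 6219 and 5943 in the resistant cells, 16542, 16686 and 15922 in the treated sensitive cells and 16032, 16986 and 11977 in the DMSO cells. The summed signal of 10 muscle-like markers was 8674 to 10548 in resistant, 32304 to 32452 in treated sensitive and 23918 to 32073 in DMSO cells, and Chrnd was below the filter. Of 9 tested, 7 were lower in both comparisons of the resistant line. Myog was higher in both, but it passed the filter only through the resistant arrays, so that it had to differ. Macrophages and osteoclasts are rich in lysosomes. The summed signal of 10 macrophage markers, of which 7 were tested, was 403 to 519 in resistant, 900.1 to 937 in treated sensitive and 928 to 1371 in DMSO cells. Of these, Ptprc, Itgam and Cybb were below the filter. Csf1r, Adgre1, Fcgr1 and Cd53 passed in neither comparison of the resistant line. Cd14 (-1.95 ± 0.11 against DMSO and -1.45 ± 0.11 against treated sensitive cells) and Lyz2 (-0.88 ± 0.20 and -1.39 ± 0.20) were lower in both. Aif1, which passed the filter only through the sensitive arrays, was lower against treated sensitive cells (-1.91 ± 0.45). Against DMSO it did not pass (-0.90 ± 0.45). All 6 osteoclast markers were below the filter and summed to 24.7 to 42.9 in resistant, 41.4 to 154 in treated sensitive and 70.8 to 255 in DMSO cells. The summed signal of 8 neural and glial markers was 252 to 267 in resistant, 396 to 429 in treated sensitive and 325 to 865 in DMSO cells. Of 6 tested, none was higher in the resistant line. Mbp, which passed the filter only through the sensitive arrays (-2.39 ± 0.33 against DMSO and -2.20 ± 0.33 against treated sensitive cells), and Tubb3 (-0.59 ± 0.19 and -0.55 ± 0.19) were lower. The highest DMSO sums of the macrophage, osteoclast, and neural and glial markers were those of DMSO array 3. The part of these markers in the lysosomal results was not tested.

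The lysosomal genes were mostly higher in sensitive cells after 24 h of rapamycin, and most of them were lower in the resistant line than in those treated cells, although the line too was in rapamycin. In treated sensitive over DMSO cells, 37 of the 47 tested genes rose, 1 fell and 9 did not pass the test. Of all tested genes, 20.4% were called higher and 15.2% lower (limma, Benjamini-Hochberg adjusted p under 0.05). The median log2 change of the 47 was 0.66, against 0.03 over all tested genes. In resistant over DMSO cells, 10 were higher, 21 were lower and 16 did not pass, and of all tested genes 25.9% were called higher and 25.8% lower. The median was -0.20, against -0.07 over all tested genes. In resistant over treated sensitive cells, 4 were higher, 35 were lower and 8 did not pass, and of all tested genes 26.4% were called higher and 30.1% lower. The median was -0.85, against -0.08. The shares of all tested genes given here also stand beside the counts by role and by promoter motif below. Each group enters more than 1 comparison, so the comparisons share arrays and are not independent. Leaving out DMSO array 3 gave 37 higher and 1 lower in the first comparison, 9 higher and 23 lower in the second and 4 higher and 36 lower in the last.

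**Figure D1:**
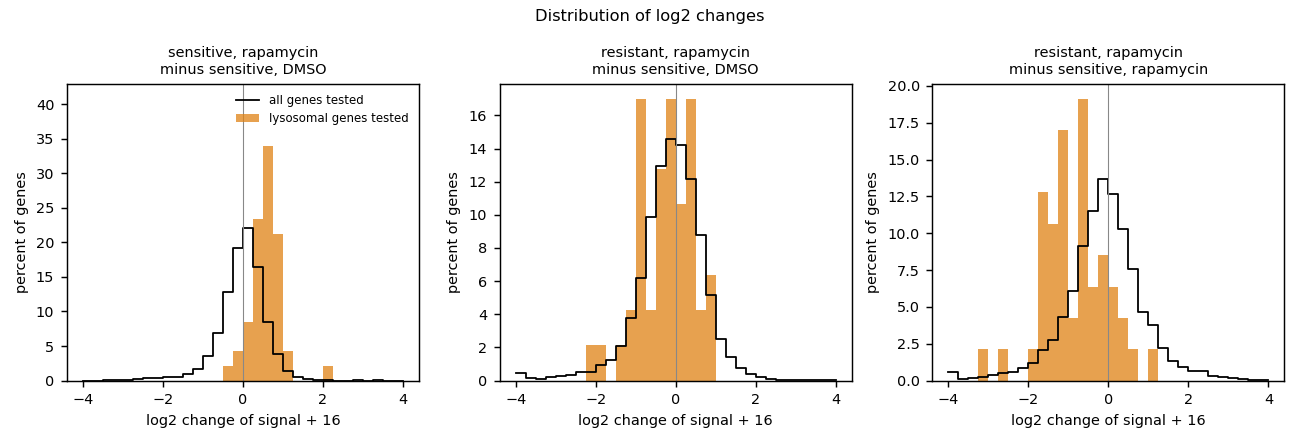
Percent of genes (vertical axis) by log2 change of signal + 16 (horizontal axis) for all 12715 tested genes (line) and the 47 tested lysosomal genes (bars), with a panel for each comparison and the few values beyond the ends counted in the end bins. Most bars lie right of 0 for treated sensitive minus DMSO cells and left of 0 for resistant minus treated sensitive cells, with medians of 0.66 and -0.85, and the median for resistant minus DMSO cells is -0.20.

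Promoters of 42 of the 50 genes were in the RefSeq promoter table (mouse build GRCm38.p6, 250 bases before to 50 bases after an annotated start site). Of these, 15 (35.7%) held the E-box CACGTG, which reads the same on both strands. It was in 8.09% of all 27025 genes of the table and in 11.3% of the 10260 tested genes found there. TCACGTG on either strand, which contains the shorter motif, was in 13 of the 42 (31.0%), against 4.29% of all genes and 6.64% of tested genes. TCACGTGA, which has both flanking bases and contains both other motifs, was in 6 of the 42 (14.3%), against 1.12% and 2.06%. The 6 genes were Atp6v0d1, Atp6v1a, Ctsa, Ctsd, Gla and Mcoln1. The first 4 promoters below, of which those of Lamp1 and Mcoln1 are both from membrane protein genes, show the E-box in capitals. The last, with no E-box, is from Ctso, which had the most negative log2 change of the 47 in both comparisons of the resistant line. They belong to the protease gene Ctsa (chr2:164833523-164833822, plus strand, the downstream of its 2 start sites in the table), the membrane protein gene Lamp1 (chr8:13158911-13159210, plus strand), the calcium channel gene Mcoln1 (chr8:3500269-3500568, plus strand), the proton pump gene Atp6v0d1 (chr8:105566015-105566314, minus strand) and the protease gene Ctso (chr3:81932351-81932650, plus strand).
Ctsa: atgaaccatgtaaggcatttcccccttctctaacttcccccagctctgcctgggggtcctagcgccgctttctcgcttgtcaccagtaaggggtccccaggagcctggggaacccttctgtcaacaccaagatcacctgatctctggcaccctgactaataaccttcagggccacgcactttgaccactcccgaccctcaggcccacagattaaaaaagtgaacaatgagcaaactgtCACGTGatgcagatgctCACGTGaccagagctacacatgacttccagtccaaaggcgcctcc
Lamp1: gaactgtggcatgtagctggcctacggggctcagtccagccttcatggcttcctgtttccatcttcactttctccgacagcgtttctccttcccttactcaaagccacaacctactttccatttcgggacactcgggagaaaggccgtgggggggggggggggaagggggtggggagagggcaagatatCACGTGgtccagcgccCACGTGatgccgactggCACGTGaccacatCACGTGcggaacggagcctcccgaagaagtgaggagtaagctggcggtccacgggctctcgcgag
Mcoln1: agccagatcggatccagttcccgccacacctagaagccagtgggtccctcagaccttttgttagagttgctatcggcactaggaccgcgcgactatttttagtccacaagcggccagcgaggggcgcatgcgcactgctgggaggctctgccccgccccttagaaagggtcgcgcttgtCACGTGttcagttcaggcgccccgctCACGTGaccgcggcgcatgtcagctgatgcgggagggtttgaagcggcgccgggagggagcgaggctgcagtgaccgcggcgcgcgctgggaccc
Atp6v0d1: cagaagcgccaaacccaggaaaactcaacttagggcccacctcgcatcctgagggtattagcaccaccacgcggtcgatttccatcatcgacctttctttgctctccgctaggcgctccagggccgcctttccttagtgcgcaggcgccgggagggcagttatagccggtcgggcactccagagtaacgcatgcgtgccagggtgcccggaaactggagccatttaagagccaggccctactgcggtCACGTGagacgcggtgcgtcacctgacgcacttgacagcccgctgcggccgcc
Ctso: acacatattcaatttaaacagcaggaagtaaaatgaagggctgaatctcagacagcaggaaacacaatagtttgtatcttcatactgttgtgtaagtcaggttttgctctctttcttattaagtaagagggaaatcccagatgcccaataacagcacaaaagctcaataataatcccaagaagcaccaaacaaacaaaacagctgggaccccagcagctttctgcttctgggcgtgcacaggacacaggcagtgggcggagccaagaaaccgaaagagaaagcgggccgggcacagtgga
The 4 copies in the Lamp1 promoter began 61, 45, 28 and 15 bases before the start site. The Atp6v0d1 copy began 3 bases before it, and the Mcoln1 copies began 71 and 45 bases before it. Of the Ctsa copies, 1 began 12 bases before the start site and 1 lay after it. Such a match of letters describes the window and is not a measured binding site. CACGTG was in none of the 7 promoters of lipid enzyme and carrier genes.

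The changes of genes with and without TCACGTG are given side by side, with no test between them, since the changes were known when the sets were formed. In treated sensitive over DMSO cells, 11 of 13 tested genes with the motif rose and none fell (median 0.66). Of 26 tested genes with a promoter in the table and no TCACGTG, 24 rose and none fell (median 0.70). For resistant over DMSO cells, 5 genes with the motif were higher and 3 lower (median 0.04), and 4 without it were higher and 12 lower (median -0.12). In resistant over treated sensitive cells, 1 with the motif was higher and 9 were lower (median -0.73), and 2 without it were higher and 19 lower (median -1.06).

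**Figure D2:**
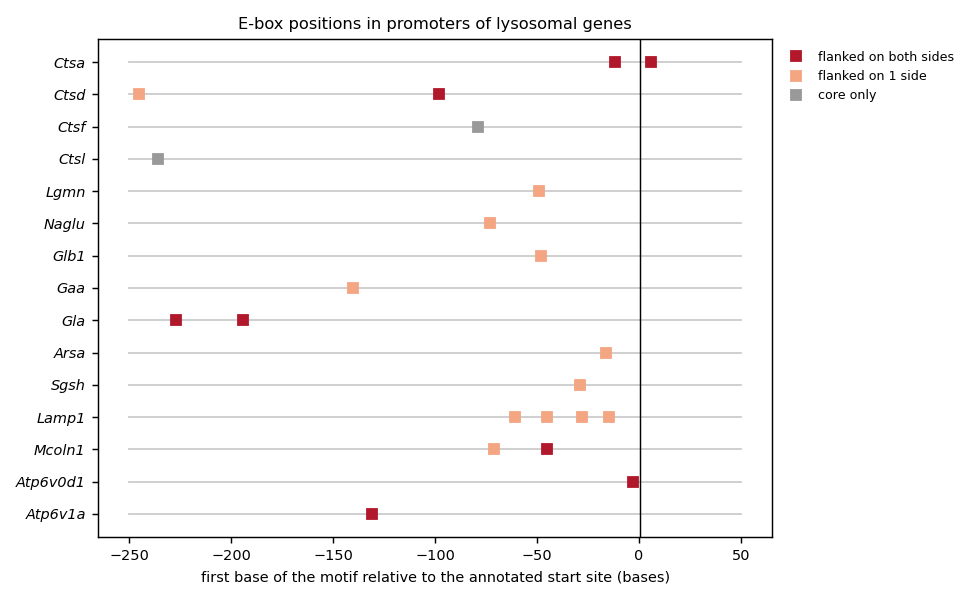
Position of each CACGTG relative to the annotated start site in bases (horizontal axis) in the 15 lysosomal gene promoters that held it, marked by its flanking bases. The 4 Lamp1 copies lie within 61 bases before the start site. The farthest copies, in Ctsd, Ctsl and Gla, begin 245, 236 and 227 bases before it.

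The 12 proteases cut proteins, most of them as cysteine cathepsins. Of 10 tested, 8 rose and none fell in treated sensitive over DMSO cells (median 0.70). For resistant over DMSO cells 4 were higher and 4 lower (median 0.17), and for resistant over treated sensitive cells 2 were higher and 7 lower (median -0.83). Ctsb, the cathepsin B gene, had signals of 1639, 1638.5 and 1584 in the resistant cells, 6598, 5713.5 and 6215 in the treated sensitive cells and 4049.8, 4231 and 3288 in the DMSO cells. No groups overlapped, with the resistant arrays lowest and the treated sensitive arrays highest. Ctsb changed by 0.68 ± 0.09 (adjusted p = 1.17e-05) on the log2 scale in treated sensitive over DMSO cells. The change was -1.23 ± 0.09 (adjusted p = 3.7e-09) in resistant over DMSO cells and -1.92 ± 0.09 (adjusted p = 4.84e-12) in resistant over treated sensitive cells. All 4 probe sets of Ctsb above the filter were called lower in resistant over DMSO cells, at -2.18 to -1.23.

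Ctso, the gene of cathepsin O, whose promoter without an E-box is printed above, had signals of 96.2, 86.5 and 81.2 in the resistant cells, 978, 849 and 915 in the treated sensitive cells and 424, 498 and 371 in the DMSO cells. The groups stood apart in the same order as for Ctsb. The resistant mean was 0.0962 of the treated sensitive mean, the smallest such ratio among the 47 genes. Ctso changed, on the log2 scale, by 1.06 ± 0.12 (adjusted p = 2.51e-06) in treated sensitive over DMSO cells. The change was -2.10 ± 0.12 (adjusted p = 2.15e-10) in resistant over DMSO cells and -3.16 ± 0.12 (adjusted p = 4.34e-13) in resistant over treated sensitive cells.

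Ctsz, Lgmn, Ctsa and Tpp1 were the proteases that were higher in resistant over DMSO cells. Ctsz, the carboxypeptidase cathepsin Z, had signals of 5216, 5553 and 5471 in the resistant cells, 4471, 4183 and 4243 in the treated sensitive cells and 3283, 3148 and 2758 in the DMSO cells. The resistant arrays were highest and no groups overlapped. Ctsz changed, on the log2 scale, by 0.49 ± 0.08 (adjusted p = 8.75e-05) in treated sensitive over DMSO and 0.82 ± 0.08 (adjusted p = 1.01e-07) in resistant over DMSO cells. In resistant over treated sensitive cells it was 0.33 ± 0.08 (adjusted p = 0.00136), and 0.18 (still called) with quantile normalization. Of its other probe sets, 1 gave 0.36 there and was called (adjusted p = 0.0015), and 1 gave 0.04 and was not called (adjusted p = 0.765). Lgmn, the gene of legumain, which cleaves after asparagine and processes cathepsins, had signals of 1432, 1499 and 1404 in the resistant cells, 934, 806 and 959 in the treated sensitive cells and 974, 977 and 817 in the DMSO cells. The sensitive groups overlapped and all resistant arrays lay above both. The log2 change of Lgmn was 0.64 ± 0.09 (adjusted p = 9.15e-06) in resistant over DMSO and 0.68 ± 0.09 (adjusted p = 3.24e-06) in resistant over treated sensitive cells. It did not pass in treated sensitive over DMSO cells, at -0.04 ± 0.09 (adjusted p = 0.801).

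Ctsa, the gene of cathepsin A, which protects the lysosomal neuraminidase and beta-galactosidase, had signals of 1650.3, 1609 and 1590.1 in the resistant cells, 2874, 2460.4 and 2629 in the treated sensitive cells and 1254, 1292 and 1135 in the DMSO cells. The resistant arrays lay between the other groups. Its log2 change was 1.10 ± 0.08 (adjusted p = 4.67e-09) in treated sensitive over DMSO, 0.40 ± 0.08 (adjusted p = 0.000318) in resistant over DMSO and -0.71 ± 0.08 (adjusted p = 3.29e-07) in resistant over treated sensitive cells. These Ctsa calls rest on its brightest probe set: averaged over its probe sets, the changes were 0.36, 0.04 and -0.32 and none was called (adjusted p = 0.0566, 0.82 and 0.0622). Tpp1, a tripeptidyl peptidase whose human gene is mutated in a childhood neuronal storage disease, changed by 0.92 ± 0.09 (adjusted p = 2.96e-07) in treated sensitive over DMSO and -0.66 ± 0.09 (adjusted p = 4.06e-06) in resistant over treated sensitive cells. Its change of 0.26 ± 0.09 (adjusted p = 0.0221) in resistant over DMSO cells was no longer called without DMSO array 3 (0.18) or resistant array 2 (0.21).

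Ctsd, the aspartic protease cathepsin D, changed by 0.72 ± 0.08 (adjusted p = 1.5e-06) in treated sensitive over DMSO and by -0.95 ± 0.08 (adjusted p = 1.22e-08) in resistant over treated sensitive cells. Its difference between resistant and DMSO cells, -0.22 ± 0.08 (adjusted p = 0.0276), was lost without DMSO array 1 or 2 or resistant array 2 or 3, at -0.23 to -0.17. Ctsl, the gene of the endopeptidase cathepsin L, rose by 0.29 ± 0.08 (adjusted p = 0.0135) in treated sensitive over DMSO cells. Without treated sensitive array 1 its value was 0.22 (adjusted p = 0.072) and was not called. In resistant over treated sensitive cells it was -0.19 ± 0.08 (adjusted p = 0.0612), which was called without DMSO array 3 (-0.19) and with quantile normalization (-0.32). Ctsh, the aminopeptidase cathepsin H, averaged 42.8 ± 6.58 in resistant, 131 ± 28.1 in treated sensitive and 97.3 ± 21.1 in DMSO cells (SD, n = 3). It was lower in resistant over DMSO cells (-0.94 ± 0.25, adjusted p = 0.00382) and in resistant over treated sensitive cells (-1.31 ± 0.25, adjusted p = 0.000167).

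The remaining proteases were dim. Ctsf, a cysteine cathepsin gene, had signals of 16.3, 31.0 and 8.61 in the resistant cells, 77.2, 76.9 and 112 in the treated sensitive cells and 3.38, 6.57 and 21.6 in the DMSO cells. It passed the filter only through the treated sensitive arrays, so that its called change of 2.03 ± 0.42 in treated sensitive over DMSO cells had to be large. That value also depends on the constant added before the log, with 3.28 for a constant of 1 and 1.04 for 64. Ctsk, the collagen-degrading cathepsin of osteoclasts, had signals of 12.2, 13.3 and 8.5 in resistant, 30.8, 30.3 and 12.5 in treated sensitive and 20.4, 31.6 and 16.5 in DMSO cells, below the filter. Ctss, a cathepsin of antigen-presenting cells, had 2.07, 33.5 and 23.4 in resistant, 26.4, 12.2 and 32.7 in treated sensitive and 34.4, 7.54 and 39.5 in DMSO cells, with overlap of all groups.

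**Figure D3:**
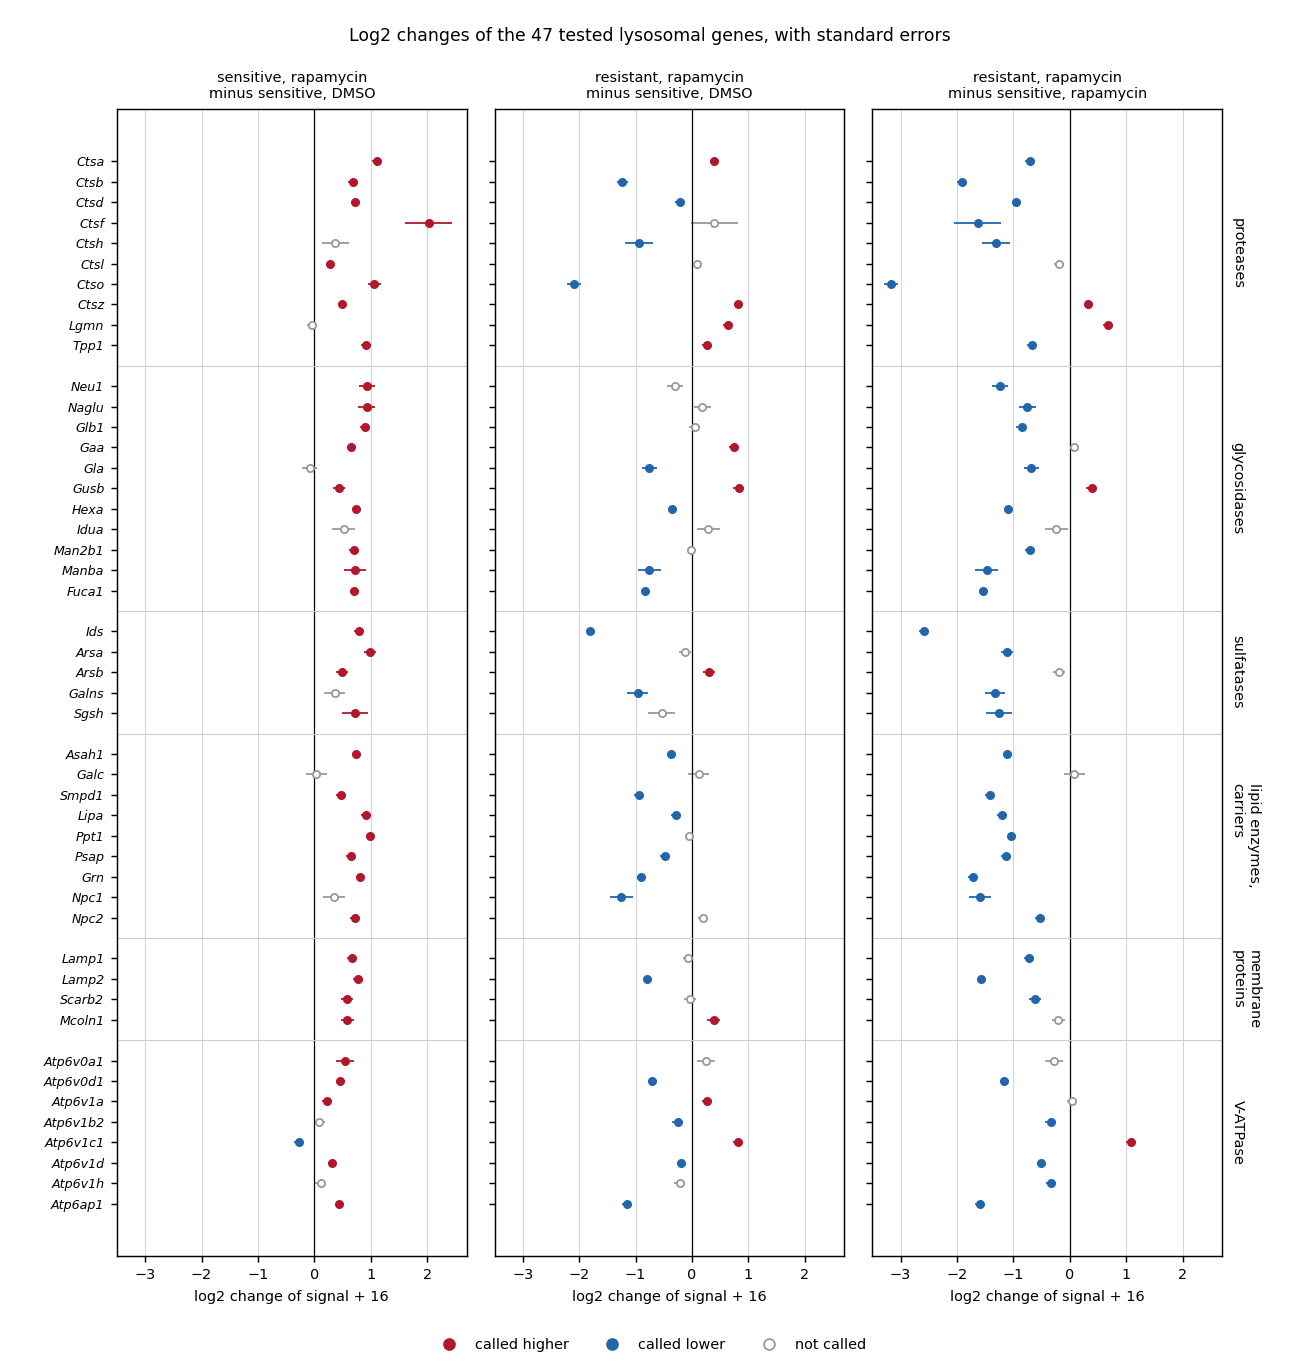
Log2 change of signal + 16 (horizontal axis) with its standard error for each of the 47 tested genes (rows, by role), in panels for treated sensitive minus DMSO, resistant minus DMSO and resistant minus treated sensitive cells; filled points were called. Ctso and Ids lie farthest left in the right panel, while Ctsz, Lgmn, Gusb and Atp6v1c1 were called higher in both panels of the resistant line.

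The 11 glycosidases remove sugars from glycoproteins, glycolipids and glycosaminoglycans. Of the 11, 9 rose and none fell in treated sensitive over DMSO cells (median 0.71). In resistant over DMSO cells 2 were higher and 4 lower (median -0.01), and in resistant over treated sensitive cells 1 was higher and 8 were lower (median -0.75). Glb1, the acid beta-galactosidase used as a senescence stain, had signals of 532, 549 and 576 in the resistant cells, 1039.5, 1005 and 985 in the treated sensitive cells and 528, 475 and 609 in the DMSO cells. The treated sensitive arrays stood above both other groups, which overlapped. Glb1 changed by 0.90 ± 0.09 (adjusted p = 6.57e-07) in treated sensitive over DMSO and -0.85 ± 0.09 (adjusted p = 3.09e-07) in resistant over treated sensitive cells. Between resistant and DMSO cells it was 0.04 ± 0.09 (adjusted p = 0.721) and did not pass. Gaa, the acid alpha-glucosidase that digests glycogen, had signals of 1228, 1112 and 1197 in the resistant cells, 1225.5, 1051 and 1067 in the treated sensitive cells and 710.5, 678 and 713 in the DMSO cells. Both rapamycin groups overlapped and lay above the DMSO group. The log2 change of Gaa was 0.74 ± 0.08 (adjusted p = 5.65e-07) in resistant over DMSO and 0.66 ± 0.08 (adjusted p = 5.17e-06) in treated sensitive over DMSO cells. Resistant over treated sensitive cells gave 0.08 ± 0.08 (adjusted p = 0.419), which did not pass, but 0.21 and called with each array centred on its 75th percentile.

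Gusb, the beta-glucuronidase, averaged 1169 ± 51.6 in resistant, 893 ± 132 in treated sensitive and 653 ± 59.5 in DMSO cells (SD, n = 3). The resistant arrays lay above all others, with log2 changes of 0.83 ± 0.10 (adjusted p = 1.96e-06) in resistant over DMSO and 0.39 ± 0.10 (adjusted p = 0.00268) in resistant over treated sensitive cells. With the mean of the Gusb probe sets these were 0.30, still called, and 0.07, not called. The other Gusb probe set had the opposite sign, at -0.23 (adjusted p = 0.124) and -0.26 (adjusted p = 0.0733), and was called in neither. Fuca1, an alpha-fucosidase, averaged 495 ± 14.9 in resistant, 1471 ± 106 in treated sensitive and 891 ± 5.24 in DMSO cells. Its log2 change was 0.71 ± 0.08 (adjusted p = 1.31e-06) in treated sensitive over DMSO and -0.83 ± 0.08 (adjusted p = 8.58e-08) in resistant over DMSO cells, with no overlap. Manba, the beta-mannosidase, was lower in resistant over DMSO cells (-0.76 ± 0.20, adjusted p = 0.0039). Its rise in treated sensitive cells, 0.72 ± 0.20 (adjusted p = 0.00885), was lost without DMSO array 1 (0.52) or treated sensitive array 1 (0.62).

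Gla, the alpha-galactosidase that is deficient in human Fabry disease, was lower in resistant over DMSO cells (-0.76 ± 0.13, adjusted p = 0.000121), and its value in treated sensitive over DMSO cells was -0.08 ± 0.13 (adjusted p = 0.689). Neu1 (sialidase), Naglu (of heparan sulfate breakdown), Hexa (a hexosaminidase subunit) and Man2b1 (alpha-mannosidase) rose by 0.69 to 0.94 in treated sensitive over DMSO cells. Of these 4, Hexa was also called between resistant and DMSO cells, at -0.35 ± 0.08 (adjusted p = 0.00114), and Neu1 was called there without DMSO array 3 (-0.36). Idua, the iduronidase, passed in no comparison, with values of 0.52 in treated sensitive over DMSO, 0.29 in resistant over DMSO and -0.23 in resistant over treated sensitive cells. Without treated sensitive array 2 the first was 0.63 and was called.

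The 5 sulfatases take sulfate groups off glycosaminoglycans and sulfolipids. Of the 5, 4 rose and none fell in treated sensitive over DMSO cells (median 0.72). For resistant over DMSO cells 1 was higher and 2 were lower (median -0.54), and for resistant over treated sensitive cells none was higher and 4 were lower (median -1.26). Ids, the iduronate sulfatase, had signals of 496, 411 and 446 in the resistant cells, 2923, 2739.9 and 2712 in the treated sensitive cells and 1649, 1584 and 1616 in the DMSO cells. No groups overlapped, with the resistant arrays lowest. Ids changed, on the log2 scale, by 0.78 ± 0.08 (adjusted p = 4.42e-07) in treated sensitive over DMSO cells. The change was -1.81 ± 0.08 (adjusted p = 3.98e-12) in resistant over DMSO and -2.59 ± 0.08 (adjusted p = 1.64e-14) in resistant over treated sensitive cells.

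Arsa, the sulfatase of the myelin lipid sulfatide, rose by 0.99 ± 0.11 (adjusted p = 1.01e-06) in treated sensitive over DMSO cells, and its value in resistant over DMSO cells was -0.12 ± 0.11 (adjusted p = 0.365). Galns, which acts on keratan sulfate, was lower in resistant over DMSO cells (-0.96 ± 0.19, adjusted p = 0.000285). Sgsh, the heparan sulfamidase, was lower in resistant over treated sensitive cells (-1.26 ± 0.24, adjusted p = 0.000164). Its rise in treated sensitive over DMSO cells, 0.72 ± 0.24 (adjusted p = 0.0245), was lost without any array of those groups except DMSO array 3, at 0.56 to 0.73. Its value in resistant over DMSO cells was -0.54 ± 0.24 (adjusted p = 0.0641), and it was called without DMSO array 2 (-0.70) or resistant array 1 (-0.71). Arsb, which acts on dermatan sulfate, rose by 0.49 ± 0.11 (adjusted p = 0.00149) in treated sensitive over DMSO cells, or 0.13 (not called) with the mean of its probe sets. Its probe sets disagreed in resistant over DMSO cells. The brightest gave 0.30 ± 0.11 (adjusted p = 0.026), or 0.18 (not called) without DMSO array 2 and 0.25 (not called) without resistant array 3. Another gave 0.91 (adjusted p = 0.0166), and the third gave -0.83 (adjusted p = 0.0497).

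The 9 genes for lipid enzymes and carriers, with which Ppt1 and Grn are listed, serve sphingolipid, neutral lipid and cholesterol turnover. Treated sensitive over DMSO cells gave a median of 0.72: 7 genes rose and none fell. In resistant over DMSO cells none was higher and 6 were lower (median -0.37), and in resistant over treated sensitive cells none was higher and 8 were lower (median -1.14). Grn, the gene of progranulin, a secreted and lysosomal precursor of granulins, had signals of 2335, 2591 and 2533 in the resistant cells, 8597.5, 8149 and 7847 in the treated sensitive cells and 5062, 4780.4 and 4145 in the DMSO cells. No groups overlapped, with the resistant arrays lowest. Grn changed, on the log2 scale, by 0.82 ± 0.08 (adjusted p = 6.46e-07) in treated sensitive over DMSO cells. The change was -0.90 ± 0.08 (adjusted p = 8.09e-08) in resistant over DMSO and -1.72 ± 0.08 (adjusted p = 7.93e-12) in resistant over treated sensitive cells. Ppt1, which removes palmitate from proteins, had signals of 637, 663 and 649.8 in the resistant cells, 1457, 1238 and 1365 in the treated sensitive cells and 665, 711.5 and 645 in the DMSO cells. Resistant and DMSO arrays overlapped, and the treated sensitive arrays lay above both. The log2 change of Ppt1 was 0.99 ± 0.08 (adjusted p = 4.22e-08) in treated sensitive over DMSO and -1.04 ± 0.08 (adjusted p = 4.62e-09) in resistant over treated sensitive cells, and its value in resistant over DMSO cells was -0.05 ± 0.08 (adjusted p = 0.643).

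Npc1, the membrane protein that exports cholesterol from the lysosome, averaged 48.6 ± 4.63 in resistant, 179.6 ± 23.1 in treated sensitive and 138 ± 13.5 in DMSO cells (SD, n = 3). It was lower in resistant over DMSO cells (-1.25 ± 0.20, adjusted p = 3.72e-05) and in resistant over treated sensitive cells (-1.59 ± 0.20, adjusted p = 1.58e-06). Its soluble partner Npc2, which hands cholesterol to it, averaged 4104 ± 102 in resistant, 5948 ± 264 in treated sensitive and 3614 ± 369.7 in DMSO cells. Npc2 rose by 0.72 ± 0.08 (adjusted p = 2.07e-06) in treated sensitive over DMSO cells and had 0.19 ± 0.08 (adjusted p = 0.0648) in resistant over DMSO cells, which became 0.24 and called without DMSO array 1. Its other probe sets above the filter disagreed in resistant over DMSO cells. They gave 0.41 (adjusted p = 0.000501) and -0.80 (adjusted p = 0.005), and both were called. Asah1 (acid ceramidase), Smpd1 (acid sphingomyelinase), Lipa (acid lipase) and Psap (the precursor of the saposin activators) rose by 0.47 to 0.91 in treated sensitive over DMSO cells. The same 4 were called lower in resistant over DMSO cells, at -0.94 to -0.29. The Lipa difference there, -0.29 ± 0.09 (adjusted p = 0.0155), was lost without DMSO array 1 (-0.25) or resistant array 2 (-0.26). The Smpd1 rise became 0.17 (adjusted p = 0.235) with the mean of its probe sets. Galc, which cleaves galactosylceramide, passed in no comparison and its groups overlapped, with mean signals of 182 ± 22.5 in resistant, 173 ± 39.7 in treated sensitive and 168 ± 35.3 in DMSO cells.

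**Figure D4:**
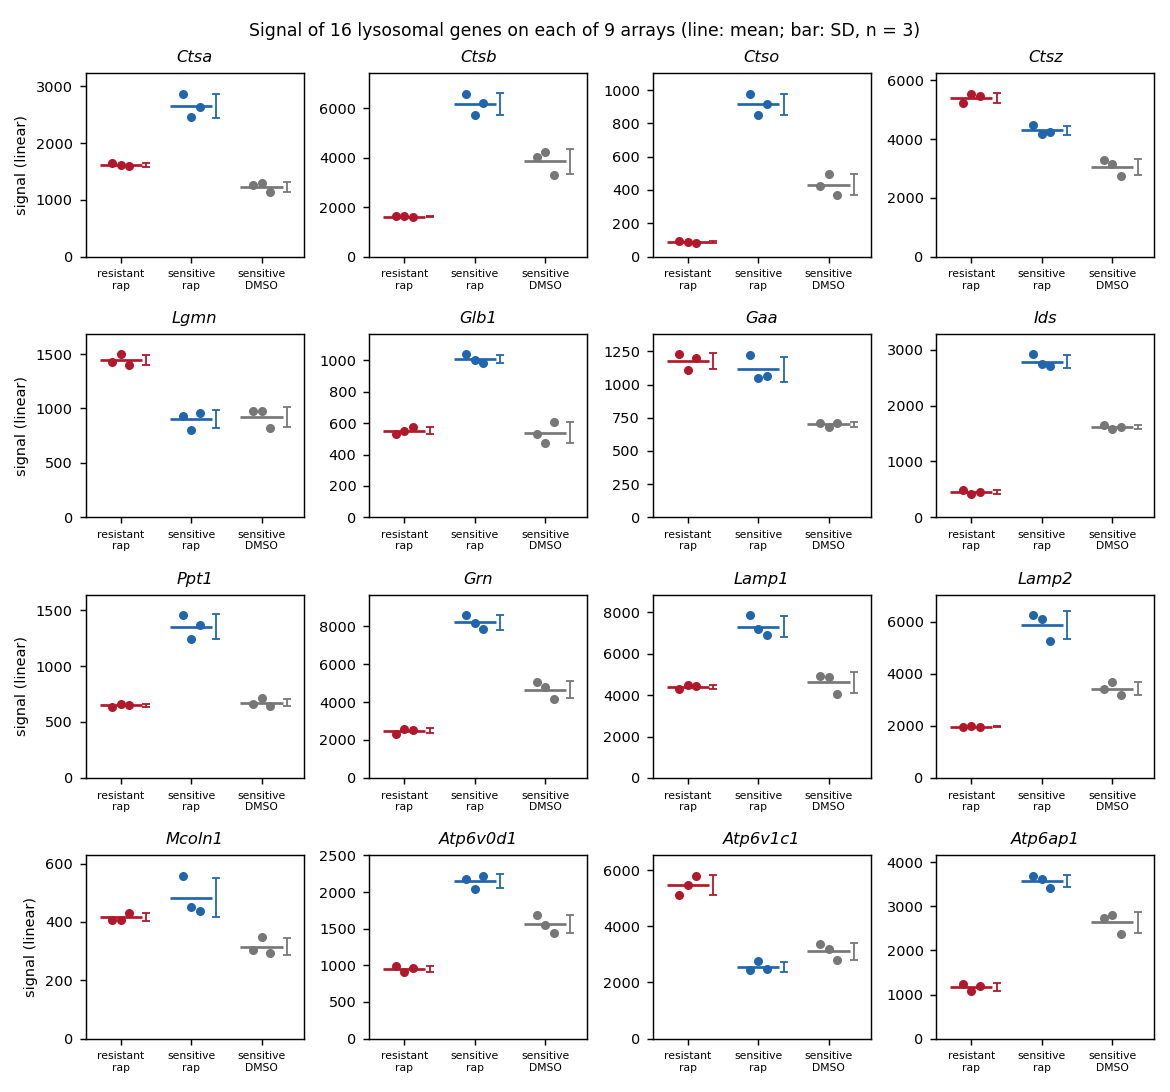
Linear signal (vertical axis, each panel with its own scale from 0) of 16 lysosomal genes on each of the 9 arrays, in the order resistant, treated sensitive and DMSO; points are arrays, lines are means and bars are SDs (n = 3). In Ctsb, Ctso, Ids, Grn and Lamp2 the resistant arrays are lowest, in Glb1, Ppt1 and Lamp1 they overlap the DMSO arrays, and in Ctsz, Lgmn and Atp6v1c1 they are highest.

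All 4 tested genes for membrane proteins rose in treated sensitive over DMSO cells (median 0.62). For resistant over DMSO cells 1 was higher and 1 was lower (median -0.05), 25.0% each and near the shares of all tested genes. For resistant over treated sensitive cells none was higher and 3 were lower (median -0.67). Lamp1, an abundant glycoprotein of the lysosomal membrane, had signals of 4307, 4467 and 4433 in the resistant cells, 7879, 7177 and 6893 in the treated sensitive cells and 4949.7, 4882 and 4044 in the DMSO cells. The resistant arrays lay within the range of the DMSO arrays and below all treated sensitive arrays. Lamp1 changed, on the log2 scale, by 0.66 ± 0.09 (adjusted p = 1.11e-05) in treated sensitive over DMSO and -0.73 ± 0.09 (adjusted p = 1.05e-06) in resistant over treated sensitive cells. Between resistant and DMSO cells it was -0.07 ± 0.09 (adjusted p = 0.565), but -0.23 and called with quantile normalization.

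Its relative Lamp2, which also serves chaperone-mediated autophagy, had signals of 1960.4, 2003 and 1944.5 in the resistant cells, 6267, 6115 and 5274 in the treated sensitive cells and 3406, 3695.5 and 3202 in the DMSO cells. No groups overlapped for Lamp2, with the resistant arrays lowest. Lamp2 changed by 0.77 ± 0.08 (adjusted p = 7.94e-07) in treated sensitive over DMSO, -0.80 ± 0.08 (adjusted p = 2.35e-07) in resistant over DMSO and -1.57 ± 0.08 (adjusted p = 1.64e-11) in resistant over treated sensitive cells. The 4 probe sets of Lamp2 gave -0.80, -0.22, -1.19 and -1.26 in resistant over DMSO cells, and the second did not pass (adjusted p = 0.225). Mcoln1, the calcium channel of the lysosomal membrane, had signals of 408, 408 and 432 in the resistant cells, 559, 450.0 and 439 in the treated sensitive cells and 304, 347 and 295 in the DMSO cells. Both rapamycin groups lay above the DMSO group. The log2 change of Mcoln1 was 0.38 ± 0.11 (adjusted p = 0.00793) in resistant over DMSO and 0.58 ± 0.11 (adjusted p = 0.000501) in treated sensitive over DMSO cells, and its value in resistant over treated sensitive cells was -0.20 ± 0.11 (adjusted p = 0.145). Scarb2, which carries glucocerebrosidase to the lysosome, rose by 0.57 ± 0.11 (adjusted p = 0.000344) in treated sensitive over DMSO cells, and its value in resistant over DMSO cells was -0.04 ± 0.11 (adjusted p = 0.81).

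The 8 V-ATPase genes had a median of 0.27 in treated sensitive over DMSO cells, with 5 higher and 1 lower. The 35 tested protease, glycosidase, sulfatase and lipid genes had a median of 0.72, with 28 higher and none lower, and the difference between these sets was not tested. In resistant over DMSO cells 2 V-ATPase genes were higher and 4 lower (median -0.21), and in resistant over treated sensitive cells 1 was higher and 5 were lower (median -0.34). Atp6v0d1, a subunit of the membrane sector V0, had signals of 989, 903 and 961 in the resistant cells, 2179, 2041 and 2225 in the treated sensitive cells and 1690.3, 1553.5 and 1439 in the DMSO cells. No groups overlapped, with the resistant arrays lowest. Its log2 change was 0.46 ± 0.08 (adjusted p = 0.000151) in treated sensitive over DMSO, -0.70 ± 0.08 (adjusted p = 6.13e-07) in resistant over DMSO and -1.16 ± 0.08 (adjusted p = 5.01e-10) in resistant over treated sensitive cells. Atp6ap1, an accessory protein of pump assembly, had signals of 1248, 1082 and 1189 in the resistant cells, 3701, 3619 and 3423.5 in the treated sensitive cells and 2746, 2794 and 2368 in the DMSO cells. Its groups stood in the same order. The log2 change of Atp6ap1 was 0.44 ± 0.08 (adjusted p = 0.000324) in treated sensitive over DMSO, -1.16 ± 0.08 (adjusted p = 2.15e-09) in resistant over DMSO and -1.60 ± 0.08 (adjusted p = 1.26e-11) in resistant over treated sensitive cells.

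Atp6v1c1, the C subunit of the cytosolic sector V1, had signals of 5113, 5484.5 and 5815 in the resistant cells, 2439, 2757 and 2482 in the treated sensitive cells and 3363, 3191 and 2789 in the DMSO cells. The resistant arrays were highest and the treated sensitive arrays lowest, with no overlap. Its log2 change was 0.81 ± 0.08 (adjusted p = 3.24e-07) in resistant over DMSO and 1.09 ± 0.08 (adjusted p = 3.93e-09) in resistant over treated sensitive cells. The 2 other probe sets of Atp6v1c1 were called higher in both, by 0.74 to 0.97. In treated sensitive over DMSO cells it fell on its brightest probe set (-0.28 ± 0.08, adjusted p = 0.0154), while the others gave -0.0033 and -0.10 and were not called. Leaving out DMSO array 1 or 2 or treated sensitive array 1 or 3 ended that call, at -0.26 to -0.22.

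Atp6v1a, the catalytic subunit of V1, changed by 0.22 ± 0.08 (adjusted p = 0.0436) in treated sensitive over DMSO and by 0.27 ± 0.08 (adjusted p = 0.0118) in resistant over DMSO cells. Leaving out DMSO array 1 gave 0.15 and 0.20, neither called. The first call was also lost without any of the treated sensitive arrays or without resistant array 2 or 3, and the second without resistant array 2 (0.21). The other probe set of Atp6v1a gave 0.21 (adjusted p = 0.0726, not called) and 0.55 (adjusted p = 4.06e-05). In resistant over treated sensitive cells it gave 0.34 (adjusted p = 0.00249), while the brightest gave 0.04 ± 0.08 and was not called (adjusted p = 0.701). Atp6v0a1, a V0 subunit, rose by 0.54 ± 0.16 (adjusted p = 0.0138) in treated sensitive over DMSO cells, which was 0.45 and not called without treated sensitive array 1. The V1 subunit genes Atp6v1b2, Atp6v1d and Atp6v1h were called lower in resistant over treated sensitive cells, at -0.51 to -0.33. With each array centred on its 75th percentile the Atp6v1b2 and Atp6v1h values became -0.21 and -0.20 and were not called. The calls of Atp6v1b2 (-0.25), whose groups overlapped, and of Atp6v1d (-0.20) in resistant over DMSO cells were lost without DMSO array 1 or 2 or any resistant array. Atp6v1h (-0.22) was called there without DMSO array 2 (-0.28) or 3 (-0.26).

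Of the 47 genes, 30 had more than 1 probe set above the filter. The calls counted next are those of the separate fit of all probe sets. In treated sensitive over DMSO cells 23 of the 30 genes were called, without Atp6v1a, which was called only in the main fit. All other probe sets were called the same way in 12 of the 23, some were not called in 11, and none was called the opposite way. In resistant over treated sensitive cells 23 were called, with all others the same way in 15, some not called in 8 and none opposite. For resistant over DMSO cells 21 were called, with all others the same way in 10, some not called in 10 and an opposite one in Arsb. Npc2 is outside this count, since its brightest probe set was not called there, while its other probe sets were called in opposite ways. Actb control probe sets at the 3-prime end exceeded those at the 5-prime end, a sign of RNA quality, by a log2 value of 0.32 to 0.35 on the resistant arrays, 0.15 to 0.22 on the treated sensitive arrays and 0.16 to 0.18 on the DMSO arrays. For the Gapdh control the same difference was -0.326 to -0.247 on the resistant arrays, -0.405 to -0.332 on the treated sensitive arrays and -0.329 to -0.300 on the DMSO arrays. Resistant and DMSO arrays overlapped there, while the resistant arrays lay above all treated sensitive arrays. The part of these differences in the results of the resistant line was not tested.

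**Figure D5:**
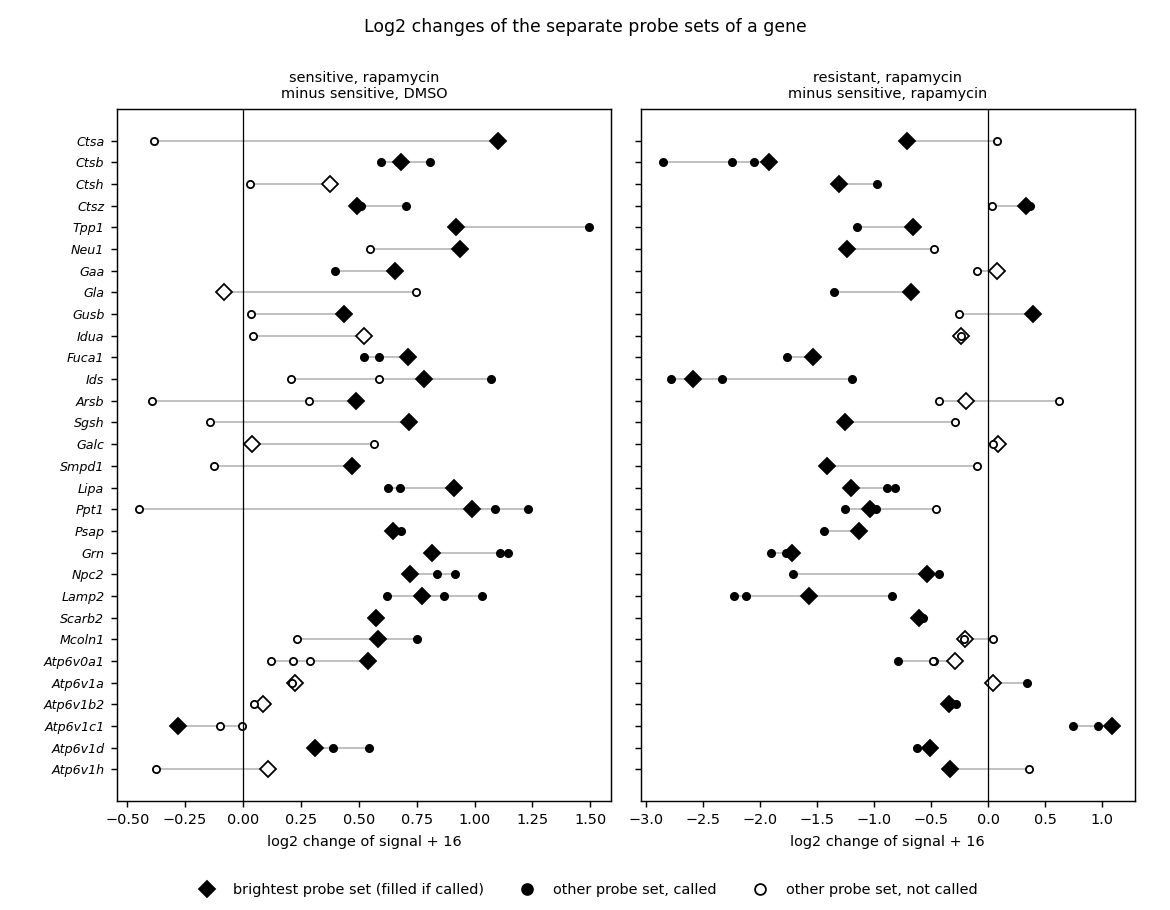
Log2 change of signal + 16 (horizontal axis) for every probe set above the filter of the 30 genes with more than 1 (rows); diamonds are the brightest probe set and circles the others, filled where called in a fit of all probe sets, in which the brightest of Atp6v1a was not called in the left panel (treated sensitive minus DMSO cells). In the right panel (resistant minus treated sensitive cells) the 4 probe sets of Ctsb and of Lamp2 all lie left of 0 and the 3 of Atp6v1c1 lie right of it.

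A further 79 genes for V-ATPase subunits, lysosomal enzymes, membrane proteins and sorting factors were examined, of which 70 had a probe set and 63 were tested. Of the 63, 36 (57.1%) rose and 2 (3.17%) fell in treated sensitive over DMSO cells (median 0.43), against 20.4% and 15.2% of all tested genes. The 2 that fell were Cln3 and Gga2, named here after their values were seen, and the count of falls was 0 to 2 over the alternatives and 0 or 1 whichever array was left out. Against DMSO cells, 13 (20.6%) were higher and 21 (33.3%) lower in resistant cells (median -0.06). All tested genes had 25.9% and 25.8% there, with a median of -0.07. In resistant over treated sensitive cells 3 (4.76%) were higher and 35 (55.6%) lower (median -0.63), against 26.4% and 30.1% of all tested genes. The largest called changes in treated sensitive over DMSO cells were those of Dnase2a, the acid DNase (1.82 ± 0.32), and Abca2, a lysosomal lipid transporter (1.18 ± 0.25). Atp6v0e2, a small V0 subunit (1.15 ± 0.12), and Sumf1, the enzyme that activates sulfatases (1.11 ± 0.10), followed. In resistant over treated sensitive cells they were those of Pla2g15, a lysosomal phospholipase (-1.80 ± 0.13), and Ostm1, the partner of a lysosomal chloride transporter (-1.79 ± 0.10). Pld3, a lysosomal exonuclease (-1.73 ± 0.10), and Acp2, an acid phosphatase (-1.68 ± 0.15), followed. Against DMSO cells, Ostm1 (-1.26 ± 0.10), Pla2g15 (-1.15 ± 0.13) and Ctsw, a cathepsin gene of lymphocytes (-0.88 ± 0.29), were lower in resistant cells, and the membrane protein gene Laptm4b (0.92 ± 0.07) was higher. The Ctsw call was lost without DMSO array 1 (-0.71), resistant array 1 (-0.81) or resistant array 2 (-0.77).

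Tfeb, the gene of the E-box factor, passed in no comparison, with signals of 78.9, 85.9 and 139 in the resistant cells, 114, 111 and 168 in the treated sensitive cells and 131, 78.2 and 284 in the DMSO cells. The groups overlapped, and without DMSO array 2 its value in resistant over DMSO cells was -0.88 and was called. Its relatives Tfe3 and Mitf were lower in resistant over DMSO cells, at -0.82 ± 0.11 (adjusted p = 6.86e-06) and -0.67 ± 0.18 (adjusted p = 0.00395). Neither passed in treated sensitive over DMSO cells (-0.09 and -0.35). Rragd, a GTPase that links amino acids to mTOR complex 1, had signals of 411, 425 and 427 in the resistant cells, 9.92, 11.4 and 30.3 in the treated sensitive cells and 6.48, 14.0 and 35.8 in the DMSO cells. It passed the filter only through the resistant arrays, so that it had to differ.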

How the data were processed

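Each array file holds 1 linear intensity (signal) for every probe set, deposited as the authors obtained it from GCOS 1.4, as recorded per the submitters' processing notes. The summary algorithm is not given in the sources used here. The mean without 2% of values at either end was 250 on all arrays, read from the values. Of 45101 probe sets, 64 were controls, 34945 had 1 gene symbol in the platform annotation, 932 had several and 9160 had none, and names came only from those with 1. Signals were taken as log2(signal + 16), which understates changes of dim genes. A probe set had to average more than the 40th percentile (signal 22.2), and the brightest stood for its gene. All 9 arrays entered 1 linear model in limma 3.58.1 (R 4.3.3, lmFit and eBayes with trend). Benjamini-Hochberg adjustment ran over all 12715 genes within a comparison, with a threshold of 0.05. The ± of a log2 change is its standard error and that of a signal its SD (n = 3 arrays). Adjusted p-values of single probe sets come from another limma fit that held every probe set past the filter.

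The 50 genes and the other lists and markers were chosen with earlier results of these data known, so no test was run over a list. In the report, lysosomal genes outside the 50 were named by a rule, the 4 largest called changes in each comparison, with Tfeb, Tfe3, Mitf and Rragd whatever their result. Those in the closing section were named after their values were seen. Promoters came from RefSeq (GRCm38.p6). Alternatives covered the added constant, scaling, filter, probe set choice, variance model, array weights, a replicate block and leaving out each array. The fit was tested on simulated arrays. The number of arrays limits the precision. No labelled batch was available to test.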

Additional observations from a re-analysis of the deposited data

How the results depend on the processing

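Over the alternatives that were run, 31 to 37 of the listed genes were called higher in treated sensitive over DMSO cells and 33 to 36 were called lower in resistant over treated sensitive cells. In resistant over DMSO cells 7 to 11 were called higher and 17 to 23 lower. Calls that held under all of them were 27 higher in treated sensitive over DMSO cells, 5 higher and 17 lower in resistant over DMSO cells, and 3 higher and 31 lower in resistant over treated sensitive cells. Ctsf is not among these, since the 60th percentile filter removed it. The number called lower in treated sensitive over DMSO cells was 1 (Atp6v1c1), and it was 0 with the mean of the probe sets, 0 without the variance trend and 0 to 1 when an array was left out. Atp6v1h changed sign in resistant over treated sensitive cells, at 0.0124 with the mean of the probe sets (adjusted p = 0.958). That mean averages the brightest probe set (-0.33) with a dim one, which gave 0.36 and was not called (adjusted p = 0.508). The dim one had mean signals of 34.4 in resistant, 22.9 in treated sensitive and 39.2 in DMSO cells. The mean of the probe sets also ended the rise of Gusb, Arsb, Sgsh and Atp6v0a1 in treated sensitive over DMSO cells and the calls of Mcoln1 and Lipa in resistant over DMSO cells. The fit without the variance trend ended those of Ctsl and Atp6v1a in treated sensitive over DMSO cells, and of Ctsd, Tpp1, Arsb, Atp6v1b2 and Atp6v1d in resistant over DMSO cells. Centring on the 75th percentile moved the median of all genes in resistant over treated sensitive cells to 0.05, against -0.08, with a median of -0.72 for the list. It ended the calls of Ctsd, Lipa, Atp6v1b2 and Atp6v1d in resistant over DMSO cells. Same-numbered arrays of different groups did not deviate together (correlations of -0.085 to 0.015). With 3 arrays in each group this cannot exclude that same-numbered arrays were prepared together. With the replicate number as a block, 37 listed genes were called higher and 1 lower in treated sensitive over DMSO cells, 10 and 20 in resistant over DMSO cells, and 4 and 35 in resistant over treated sensitive cells, with 4382, 6448 and 7100 of all genes called.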

Other observations

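Genes whose products deliver hydrolases to the lysosome were examined apart from the list of 50. Of 14 tested, 5 rose and 1 fell in treated sensitive over DMSO cells (median 0.18, with the fall lost under several alternatives). In resistant over DMSO cells 4 were higher and 2 lower (median 0.23). In resistant over treated sensitive cells 1 was higher and 6 were lower (median -0.15). Of all tested genes, 20.4% were called higher and 15.2% lower in the first comparison. The second had 25.9% and 25.8%, and the last 26.4% and 30.1%. The following genes were named after their values were seen. Igf2r, the large mannose 6-phosphate receptor, averaged 201 ± 2.68 in resistant, 305 ± 63.5 in treated sensitive and 138 ± 13.0 in DMSO cells (SD, n = 3), with log2 changes of 1.05 ± 0.16 (adjusted p = 4.13e-05) in treated sensitive over DMSO and 0.50 ± 0.16 (adjusted p = 0.0115) in resistant over DMSO cells. The second was lost with the mean of the probe sets (0.39). The difference of resistant from treated sensitive cells, -0.55 ± 0.16 (adjusted p = 0.00583), was lost without treated sensitive array 1 (-0.39) or with quantile normalization (-0.41). M6pr, the small receptor, passed in no comparison, with values of 0.12 in treated sensitive over DMSO and -0.13 in resistant over treated sensitive cells, though the second was called at -0.19 with quantile normalization. Gnptg, a subunit of the enzyme that makes the mannose 6-phosphate tag, averaged 126 ± 17.7 in resistant, 376 ± 17.5 in treated sensitive and 233 ± 41.4 in DMSO cells. Its changes were 0.67 ± 0.15 (adjusted p = 0.00198) in treated sensitive over DMSO, -0.81 ± 0.15 (adjusted p = 0.000205) in resistant over DMSO and -1.47 ± 0.15 (adjusted p = 1.41e-07) in resistant over treated sensitive cells. Sort1, a sorting receptor that works beside those receptors, had changes of 0.51 ± 0.10 (adjusted p = 0.000665), -0.38 ± 0.10 (adjusted p = 0.00434) and -0.90 ± 0.10 (adjusted p = 5.66e-07) in these comparisons. The first was 0.28 and not called with the mean of its probe sets.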
